A study of Mus musculus with 2 samples.

Results

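The genes described here are 50 genes of mitosis, the spindle and the kinetochore, taken by symbol from a table of read counts that lists 30538 genes. All 50 symbols were found, each in 1 row, and all 50 had a mean of at least 1 CPM (counts scaled to a common library size, corrected with TMM factors), the level at which a gene counts as measured. The counts come from RNA sequencing of cells sorted from the spleens of mice infected with *Listeria monocytogenes*. The tested library came from Ch25h-/- mice, which lack cholesterol 25-hydroxylase, the enzyme that turns cholesterol into 25-hydroxycholesterol, and the other library came from C57BL/6 mice. All mice received 100000 bacteria intravenously, so both genotypes carried the infection and no uninfected group enters the comparison. Cells were sorted at day 3 as CD11b-positive, Ly6G-negative and Ly6C-low, about 100000 per sort, and the labels call them resident splenic macrophages. Neither the age of the mice nor how many were pooled is given in the sources used here.

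Mitosis begins when cyclin-dependent kinase 1, bound to cyclin A2 and the B cyclins, is switched on by CDC25 phosphatases. Condensin and topoisomerase II compact the chromosomes, kinesins and Aurora and Polo kinases build the spindle, and kinetochores attach it to the centromeres. The spindle checkpoint holds back the anaphase-promoting complex until every kinetochore is attached, after which securin is destroyed, separase frees the sister chromatids, and the midzone and a contractile ring divide the cell. Most of the genes are transcribed mainly in G2 and M phase, so in tissue RNA they are widely read as marks of dividing cells. In a spleen fighting infection such cells can be lymphocytes, myeloid precursors or macrophages.

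Each genotype is represented by a single library, so no difference can be checked against replicates and no p-value is given. Each ratio is the Ch25h-/- library over the C57BL/6 library, with an exact 95% interval that covers counting error only and leaves out the variation between mice, sorts and library preparations. The words called higher or lower are used of genes that pass a stated fold with an interval that excludes a log2 ratio of 0. The Ch25h-/- library held 15986392 gene counts and the C57BL/6 library 16957371. The deleted gene itself does not check the labels, with 0 counts in the Ch25h-/- library (exact upper limit 3.69) and 3 in the C57BL/6 library. Itgam, which encodes the CD11b of the sort, had 877 CPM in the Ch25h-/- library and 706 CPM in the C57BL/6 library, while Ly6g, which the sort gated against, had 41 and 8 counts. Of the Ly6C genes, Ly6c2 had 173 CPM in the Ch25h-/- library and 103 CPM in the C57BL/6 library (log2 ratio 0.75). Ly6c1 had 3.53 and 3.51 CPM. Defining markers of red pulp macrophages were present at low levels, their 12 genes summing to 231 CPM in the Ch25h-/- library and 352 CPM in the C57BL/6 library. Natural killer (NK) cell markers were far more abundant, with 14 genes summing to 21747 CPM in the Ch25h-/- library and 13484 CPM in the C57BL/6 library.

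Promoters of mitotic genes are known for a short element called CHR (cell cycle genes homology region, here the letters TTTGAA), which binds the MuvB core of the DREAM and B-MYB complexes, and for CCAAT boxes, which bind NF-Y. RefSeq windows on GRCm38.p6, from 250 bases before to 50 after a start site, were given for 42 of the 50 genes, in 47 windows. TTTGAA was found on either strand in 30 of these 42 genes (71.4%), against 14.4% of the 8986 measured genes with a window and 17.9% of all 32851 windows. Matches lay close to the start. Between 60 bases before the start and the end of the window, 27 of the 42 genes (64.3%) held the letters, against 4.21% of measured genes with a window. The following stretches show the match nearest to the start in at least 1 gene of each role, in capitals with 10 bases on either side, read 5′ to 3′ on the strand that carries TTTGAA.
Top2a, chr11:99024197-99024222, plus strand: cctagtttcaTTTGAAcctttatcta
Kif11, chr19:37376353-37376378, minus strand: gcgcctcaatTTTGAAaaatggagac
Cdk1, chr10:69352912-69352937, minus strand: ccgcggcgagTTTGAAactgctggca
Ccnb2, chr9:70421535-70421560, minus strand: cggcgcggtaTTTGAAtcgcggaccg
Aurka, chr2:172370523-172370548, minus strand: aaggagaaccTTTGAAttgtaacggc
Plk1, chr7:122159455-122159480, plus strand: cagcgccgcgTTTGAAttcggggagg
Ndc80, chr17:71526813-71526838, plus strand: cccaaggcggTTTGAAttttaaagtt
Cenpf, chr1:189688069-189688094, minus strand: cggcgggcagTTTGAAtcgctcgtgc
Ube2c, chr2:164769890-164769915, minus strand: gccgcccgcgTTTGAAttgcaaccct
Cdc20, chr4:118437346-118437371, minus strand: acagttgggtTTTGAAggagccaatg
Racgap1, chr15:99651636-99651661, minus strand: ggtgcgtgatTTTGAAccggatctgg
Bub3, chr7:131560317-131560342, minus strand: attggctgatTTTGAAcgccaacggc

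CCAAT, again on either strand, was found in 30 of the 42 genes (71.4%), against 43.3% of measured genes with a window. Both TTTGAA and CCAAT stood in 25 of the 42 (59.5%), against 7.14% of measured genes. A pair of E2F-type letter strings was found in fewer of the 42 genes. TTCCCGC was present in 2 of the 42 genes (4.76%), against 9.90% of measured genes with a window, and TTGGCGC in 7 (16.7%), against 5.19%. With 2 genes, a lower share of TTCCCGC cannot be told from an equal one, and its share was close to that of all windows. Either E2F-type string stood in 9 of the 42 (21.4%), against 14.3% of measured genes with a window. None of these 4 strings contains another, although TTGGCGC after an A overlaps a CCAAT box on the other strand, and a match is a description of the letters, not a bound site. Whole windows of 3 genes show the arrangement, with TTTGAA and CCAAT, or their complements TTCAAA and ATTGG, in capitals. Top2a (chr11:99024140-99024439, read on the minus strand) has 6 CCAAT boxes and 2 TTTGAA matches, the nearer one starting 23 bases before the start. Ccnb2 (chr9:70421505-70421804, minus strand) has CCAAT boxes starting 87, 54 and 21 bases before the start. It has 2 TTTGAA matches, starting 167 bases before the start and 4 bases after it. Nuf2 (chr1:169531415-169531714, minus strand) has neither.
Top2a: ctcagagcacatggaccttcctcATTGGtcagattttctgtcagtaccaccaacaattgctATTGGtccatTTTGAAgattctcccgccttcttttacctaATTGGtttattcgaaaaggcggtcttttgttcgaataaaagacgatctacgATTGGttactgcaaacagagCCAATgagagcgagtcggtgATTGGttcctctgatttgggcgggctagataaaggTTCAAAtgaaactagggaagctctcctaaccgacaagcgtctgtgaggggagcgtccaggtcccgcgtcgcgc
Ccnb2: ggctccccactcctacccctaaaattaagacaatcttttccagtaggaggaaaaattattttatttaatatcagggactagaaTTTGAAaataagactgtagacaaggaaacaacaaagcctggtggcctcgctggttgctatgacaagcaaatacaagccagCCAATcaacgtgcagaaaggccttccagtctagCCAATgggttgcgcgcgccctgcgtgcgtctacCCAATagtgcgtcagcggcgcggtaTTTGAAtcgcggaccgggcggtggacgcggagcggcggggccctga
Nuf2: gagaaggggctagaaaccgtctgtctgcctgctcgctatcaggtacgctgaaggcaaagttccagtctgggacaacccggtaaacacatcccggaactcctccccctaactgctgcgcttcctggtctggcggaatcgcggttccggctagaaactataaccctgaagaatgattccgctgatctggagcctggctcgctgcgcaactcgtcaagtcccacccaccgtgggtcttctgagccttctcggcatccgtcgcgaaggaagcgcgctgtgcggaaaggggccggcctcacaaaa

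**Figure D1:**
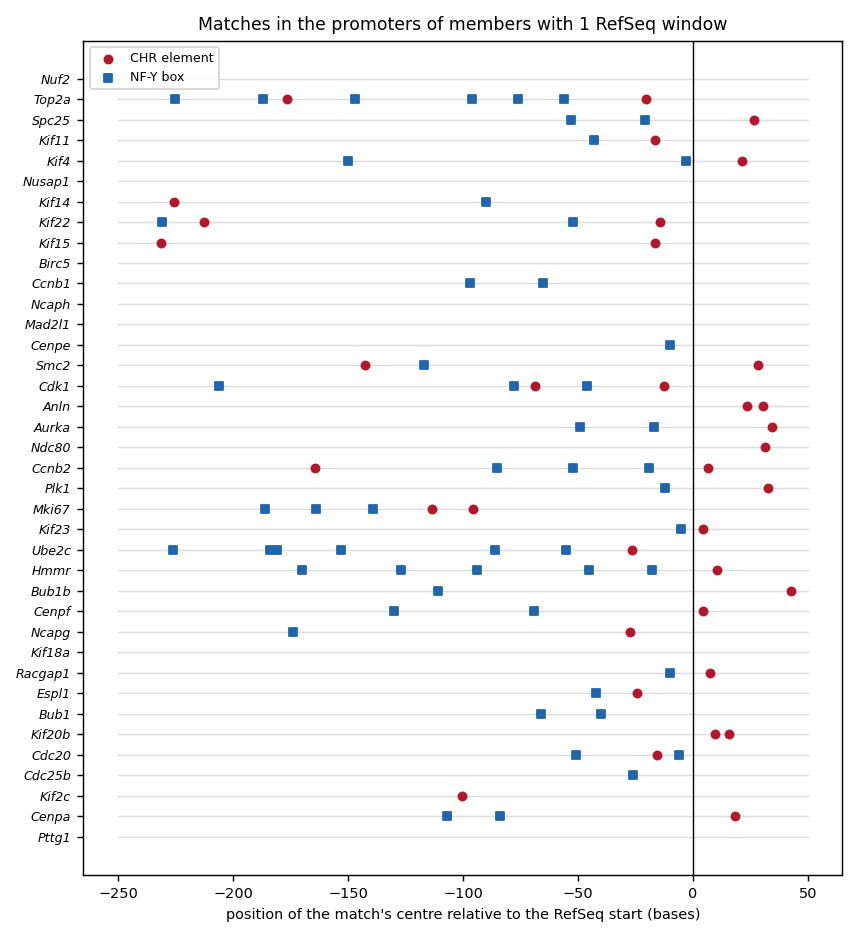
Positions of CHR (TTTGAA, red circles) and NF-Y box (CCAAT, blue squares) matches on either strand, in bases from the RefSeq start at 0, for the members with a single RefSeq window, ordered from the largest log2 ratio at the top to the smallest at the bottom. CHR matches gather around the start and NF-Y boxes mostly before it, and lines without marks, such as that of Nuf2 at the top, hold neither within the window. For Pttg1 at the bottom, and for Kif14, Kif2c and Kif4, which are drawn with matches, the window may not cover the main start.

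The 12 genes whose windows lacked TTTGAA were Cenpk, Nuf2, Nusap1, Birc5, Ccnb1, Ncaph, Mad2l1, Cenpe, Kif18a, Bub1, Cdc25b and Pttg1. The RefSeq window of Pttg1 lies wholly inside the gene as GENCODE annotates it, so it may not cover the main start. The same holds for the single windows of Kif14, Kif2c and Kif4, which are counted among the 30 genes with the letters. The log2 ratios of the 12 genes without the letters spanned -0.12 to 1.63 between the libraries, with a median of 0.90. The 30 genes with the letters spanned 0.30 to 1.07 with a median of 0.79. The range with the letters lay within the range without them, and both the largest and the smallest ratio of all 42 belonged to genes without the match.

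Nearly all 50 mitosis genes were higher in the Ch25h-/- library. A log2 ratio above 0 was found for 49 of the 50, against 51.8% of the 11972 measured genes, and Pttg1 was the exception. The interval lay wholly above 0 for 48 of the 50, against 31.0% of measured genes, and wholly below 0 for 0 of them, against 27.5%. At 1.5-fold, 41 of the 50 were called higher (82.0%), against 7.35% of measured genes. At 2-fold, 10 of the 50 were called higher (20%), against 2.07% of measured genes. The number called lower was 0 at either fold, against 11.2% of measured genes at 1.5-fold and 5.77% at 2-fold. The same shares of measured genes apply to the counts called in each role and list below. The median log2 ratio of the 50 was 0.81, while that of all measured genes was 0.01, and the upper quartile of all measured genes, 0.25, lay below 49 of the 50.

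Together the 50 genes took 5012 CPM in the Ch25h-/- library and 2871 CPM in the C57BL/6 library, which was 0.497% and 0.290% of all counts. The ratio of these sums was 1.75-fold, a log2 ratio of 0.80 with an interval of 0.79 to 0.82. Mki67 and Top2a supplied 34.0% of the summed counts in the Ch25h-/- library and 32.0% in the C57BL/6 library, and without them the log2 ratio of the sums was 0.76. In bulk RNA such as this, more cells in division and more mitotic RNA per dividing cell cannot be told apart.

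**Figure D2:**
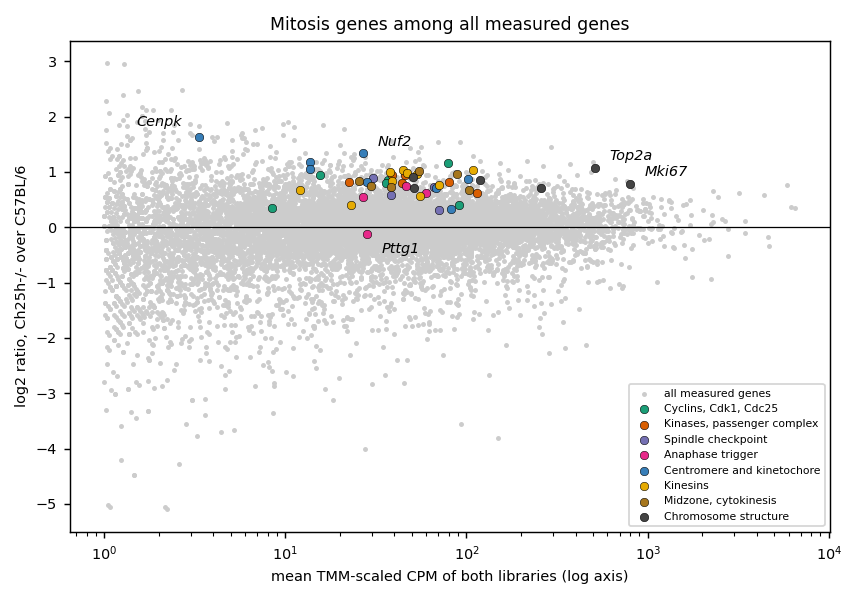
Log2 ratio of the Ch25h-/- over the C57BL/6 library against the mean TMM-scaled CPM of both (log axis), 1 point per measured gene, with the 50 mitosis genes coloured by role and the other genes in grey. The coloured points form a band between 0.30 and 1.63 at all levels, and only Pttg1 lies under 0.

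By the counting error of reads alone, the genes did not all share 1 ratio. The interval of 25 genes held the median of the 50, that of 12 lay wholly above it and that of 13 wholly below it. Those above the median were led by the kinetochore genes Cenpk, Nuf2 and Spc24, by cyclin A2, Top2a and several kinesins. Those below it included Cdc25b, Cenpa, Bub3, Kif2c, Cdc20 and Pttg1.

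The cyclins and CDK1, which drive entry into mitosis, were all called higher at 1.5-fold. Ccna2, which encodes cyclin A2 of S phase and G2, had 1742 counts in the Ch25h-/- library and 836 in the C57BL/6 library, or 110.0 and 48.9 CPM. This is a log2 ratio of 1.17 (interval 1.05 to 1.29), the largest among the cyclin, Cdk1 and Cdc25 genes and past 2-fold over its whole interval. Ccna2 shares 510 exon bases with Exosc9 on the opposite strand (28.2 and 18.6 CPM, log2 ratio 0.60). The mitotic cyclins followed. Ccnb1 had 20.4 CPM in the Ch25h-/- library and 10.6 CPM in the C57BL/6 library (0.94), and Ccnb2 had 45.6 and 26.3 CPM (0.79, interval 0.62 to 0.97). Cdk1, the kinase that they activate, had 47.4 CPM in the Ch25h-/- library and 26.3 CPM in the C57BL/6 library (0.85, interval 0.68 to 1.02). The phosphatases that switch it on had smaller ratios, but only Cdc25b was separated from all 4 of these genes by its interval. Cdc25b had 103 CPM in the Ch25h-/- library and 77.9 CPM in the C57BL/6 library (0.41, interval 0.30 to 0.51), with an interval wholly under those of Ccna2, Ccnb1, Ccnb2 and Cdk1. Cdc25c, with 150 and 128 counts, had an interval of -0.01 to 0.69, which includes 0 and also overlaps those of Ccnb1, Ccnb2 and Cdk1.

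Kinases of the spindle and the chromosomal passenger complex were called higher at 1.5-fold in all 6 cases and at 2-fold in 0. Plk1, the Polo-like kinase of centrosome maturation and cytokinesis, had 56.0 CPM in the Ch25h-/- library and 32.3 CPM in the C57BL/6 library, a log2 ratio of 0.79 (interval 0.64 to 0.95). Aurka, the Aurora kinase of the spindle poles, had 28.5 and 16.2 CPM, and Tpx2, which activates it on spindle microtubules, had 102 and 57.9 CPM. Both of these stood at a log2 ratio of 0.82. The passenger complex corrects faulty attachments at the centromere and then moves to the midzone. Its kinase gene Aurkb had 60.5 CPM in the Ch25h-/- library and 31.4 CPM in the C57BL/6 library (0.94), and Birc5, which encodes survivin, had 51.2 and 26.6 CPM (0.94, interval 0.78 to 1.11). Incenp, the scaffold that binds both, was the most abundant of the role per length, at 31.8 and 20.8 CPM per kb of exon. Its log2 ratio was the smallest of the 6, at 0.61, and its interval of 0.52 to 0.71 lay below those of both partners.

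Spindle checkpoint genes differed in size of ratio. Mad2l1, whose product MAD2 binds and inhibits CDC20, had 39.9 CPM in the Ch25h-/- library and 21.4 CPM in the C57BL/6 library (log2 ratio 0.90, interval 0.71 to 1.09). Bub1b, the gene of the checkpoint kinase BUBR1 and the most abundant of the 4 per length (19.4 and 11.7 CPM per kb), had 82.8 and 50.2 CPM (0.72). Bub1 had 45.9 and 30.8 CPM, a log2 ratio of 0.58 that falls just short of 1.5-fold. Bub3, the partner of BUB1 and BUBR1, had 1229 counts in the Ch25h-/- library and 1075 in the C57BL/6 library, or 77.6 and 62.8 CPM. Its log2 ratio of 0.30 (interval 0.19 to 0.42) was the second smallest of the 50, and its interval does not reach that of Bub1b or Mad2l1.

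Genes of the anaphase trigger had the smallest ratios as a role, with a median of 0.58 and 2 of 4 called higher at 1.5-fold. Ube2c, the ubiquitin-conjugating enzyme of the anaphase-promoting complex and the most abundant of the 4 per length by the mean of both libraries (22.4 and 13.3 CPM per kb), had 58.2 CPM in the Ch25h-/- library and 34.6 CPM in the C57BL/6 library (log2 ratio 0.75). Espl1, the gene of separase, had 72.4 and 47.1 CPM (0.62). Cdc20, the activator of the complex, had 32.0 and 22.03 CPM (0.54, interval 0.34 to 0.73), short of 1.5-fold. Pttg1 encodes securin, the inhibitor that holds separase until anaphase. It had 429 counts in the Ch25h-/- library and 502 in the C57BL/6 library, or 27.1 and 29.3 CPM (13.5 and 14.7 CPM per kb), a log2 ratio of -0.12 with an interval of -0.30 to 0.07. Securin was the only one of the 50 with a ratio under 0, its interval includes 0, and it lies wholly below that of separase, 0.49 to 0.75.

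Centromere and kinetochore genes held the largest ratios. At 2-fold, 4 of the 8 were called higher, and at 1.5-fold 7 of 8. Cenpk, a subunit of the constitutive centromere network, had 80 counts in the Ch25h-/- library and 28 in the C57BL/6 library, or 5.05 and 1.64 CPM. Its log2 ratio of 1.63 was the largest of the 50, with the widest interval, 0.99 to 2.30. It was also the least abundant per length, it would not be counted at a minimum mean of 5 CPM, and it shares 233 exon bases with Ppwd1 on the opposite strand (22.1 and 21.9 CPM, log2 ratio 0.02).

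The Ndc80 complex, the 4-part rod that grips spindle microtubules, was higher in every subunit. Nuf2 had 610 counts in the Ch25h-/- library and 259 in the C57BL/6 library, or 38.5 and 15.1 CPM, a log2 ratio of 1.35 (interval 1.13 to 1.56). Spc24 had 300 and 143 counts (1.18, interval 0.89 to 1.48), and Spc25 had 292 and 151 counts (1.06, interval 0.77 to 1.36). Ndc80 had 573 and 353 counts, and its log2 ratio of 0.81 (interval 0.62 to 1.01) lay wholly below that of Nuf2, its direct partner. Per kb of merged exon length, which joins the exons of all annotated transcripts, the 4 subunits lay close together. They stood between 5.57 and 7.36 CPM per kb in the Ch25h-/- library and between 2.39 and 3.25 CPM per kb in the C57BL/6 library.

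The remaining kinetochore genes had ratios below those of Nuf2, Spc24 and Spc25. Cenpe, the kinesin of chromosome congression, had 132 CPM in the Ch25h-/- library and 72.6 CPM in the C57BL/6 library (log2 ratio 0.87). Cenpf, a large protein of the kinetochore corona, had 84.8 and 51.8 CPM (0.71). Cenpa, the histone H3 variant that marks centromeres, was the most abundant of the role per length, at 15.7 CPM per kb in the Ch25h-/- library and 12.5 CPM per kb in the C57BL/6 library. With 92.0 and 73.3 CPM its log2 ratio was 0.33 (interval 0.22 to 0.44), the third smallest of the 50.

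**Figure D3:**
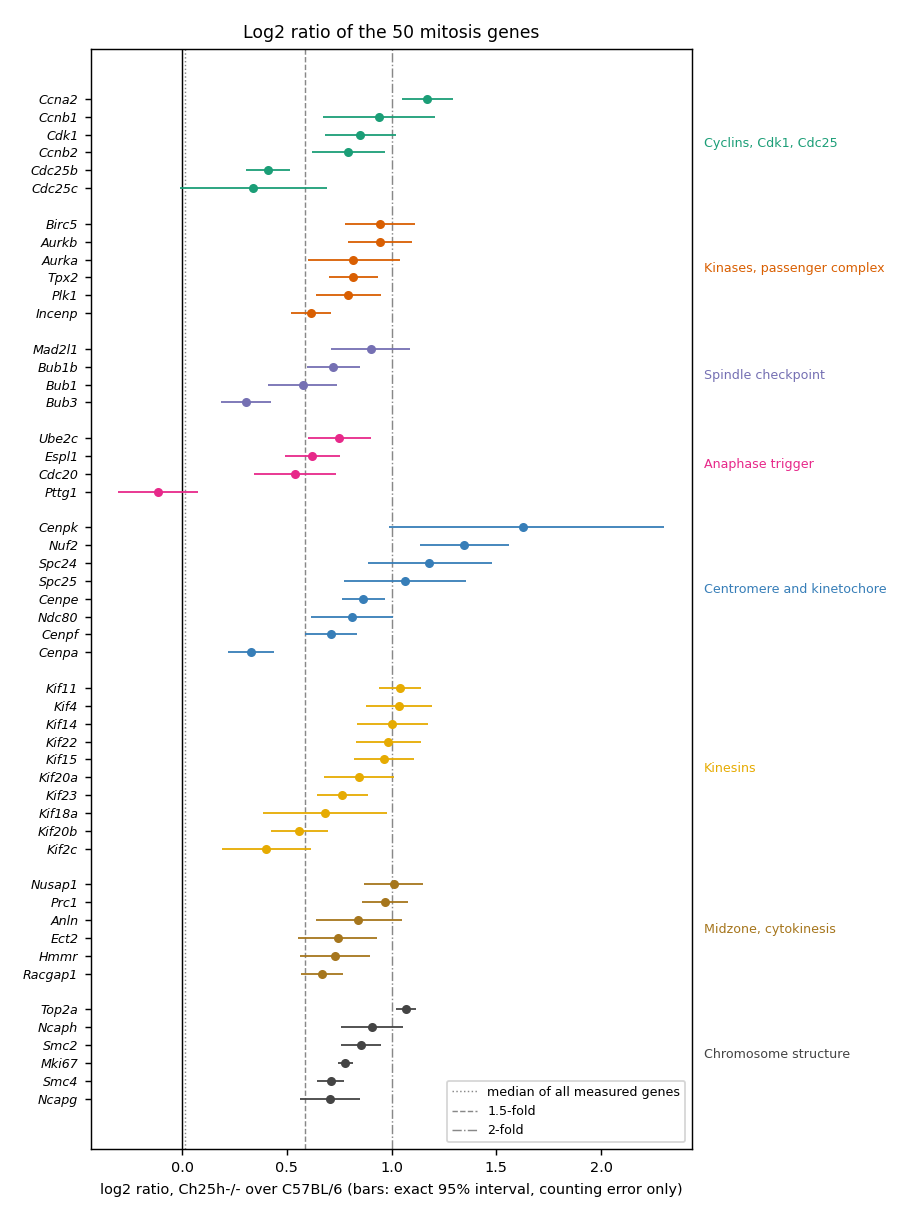
Log2 ratio of the Ch25h-/- over the C57BL/6 library for each of the 50 genes, grouped by role, with exact 95% intervals for counting error. The vertical lines mark 0, the median of all measured genes at 0.01, 1.5-fold and 2-fold. The kinetochore genes Cenpk and Nuf2 reach furthest right, and only the intervals of Cdc25c and Pttg1 include 0.

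Kinesins were higher in all 10 cases, with 8 called at 1.5-fold and 3 at 2-fold. Kif11, the Eg5 motor that pushes the spindle poles apart, was the most abundant of them per length, at 19.6 CPM per kb in the Ch25h-/- library and 9.51 CPM per kb in the C57BL/6 library. It had 2311 counts in the Ch25h-/- library and 1214 in the C57BL/6 library, or 146 and 70.9 CPM, a log2 ratio of 1.04 (interval 0.94 to 1.14). Kif15, a motor that can back up Eg5, had 70.3 and 36.1 CPM (0.96). Of the chromosome-bound motors, Kif4 had 59.9 CPM in the Ch25h-/- library and 29.2 CPM in the C57BL/6 library (1.04, interval 0.88 to 1.19), and Kif22 had 62.0 and 31.4 CPM (0.98). Kif4 shares 832 exon bases with Pdzd11 on the opposite strand (16.9 and 14.4 CPM, log2 ratio 0.23).

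Kinesins of the midzone and cytokinesis covered a wide range. Kif14 had 50.5 CPM in the Ch25h-/- library and 25.2 CPM in the C57BL/6 library (log2 ratio 1.003, interval 0.83 to 1.18), at the edge of the 2-fold rule, and fell short of it with DESeq2 size factors, with total counts or with a prior count of 2. Kif20a had 50.1 and 27.9 CPM (0.84), but 1271 of its exon bases are shared with Cdc23 on the opposite strand (54.3 and 42.2 CPM, log2 ratio 0.36). Kif23, the motor subunit of centralspindlin, had 89.2 and 52.5 CPM (0.77). Kif20b stood at 0.56. The remaining kinesins, Kif18a and Kif2c, were among the lower ones. Kif18a, with 236 counts in the Ch25h-/- library and 159 in the C57BL/6 library, stood at 0.68, and Kif2c, a centromeric depolymerase with 416 and 340 counts, at 0.40 (interval 0.19 to 0.61).

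Genes of the midzone, cytokinesis and spindle-binding proteins were called higher at 1.5-fold in all 6 cases. Nusap1, which bundles spindle microtubules near chromatin, had 73.3 CPM in the Ch25h-/- library and 36.4 CPM in the C57BL/6 library. Its log2 ratio of 1.01 (interval 0.87 to 1.15) passed 2-fold, though not when libraries were scaled by total counts, and it shares 172 exon bases with Oip5 on the opposite strand (4.92 and 3.62 CPM, log2 ratio 0.44). Prc1, the crosslinker of antiparallel midzone microtubules, had 117 and 60.02 CPM (0.97). It shares 911 exon bases with Rccd1 on the opposite strand, which stood at 12.8 and 13.1 CPM (log2 ratio -0.04). Anln, the gene of the contractile ring scaffold anillin, stood at 0.84, Ect2, which activates RhoA at the cleavage site, at 0.74, and Hmmr, a spindle-pole protein, at 0.73. Racgap1, the partner of Kif23 in centralspindlin and the most abundant of the 6 per length by the mean of both libraries (17.9 and 11.3 CPM per kb), had 127 CPM in the Ch25h-/- library and 79.7 CPM in the C57BL/6 library (0.67, interval 0.57 to 0.77), and the intervals of these partners overlap.

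Chromosome structure genes included the 3 most abundant of the 50 per length, Mki67, Top2a and Smc4. Mki67, whose product Ki-67 coats mitotic chromosomes, had 16016 counts in the Ch25h-/- library and 10089 in the C57BL/6 library, or 1011 and 589.6 CPM. That makes it the highest of the 50 per length too, at 100.5 and 58.6 CPM per kb, with a log2 ratio of 0.78 (interval 0.74 to 0.81). Top2a, which untangles sister chromatids, had 10958 and 5646 counts, or 692 and 330.0 CPM. Its log2 ratio of 1.07 (interval 1.02 to 1.11) lay wholly above that of Mki67, and with Nuf2 and Ccna2 it was 1 of the 3 genes whose whole interval exceeded 2-fold.

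The 4 condensin genes among the 50 lay between 0.70 and 0.91. Smc4 had 322 CPM in the Ch25h-/- library and 197 CPM in the C57BL/6 library (log2 ratio 0.71), and its partner Smc2 had 154 and 85.0 CPM (0.85). The condensin I subunits Ncaph and Ncapg stood at 0.91 and 0.70, with 65.7 and 63.6 CPM in the Ch25h-/- library against 35.1 and 39.0 CPM in the C57BL/6 library. Ncapg shares 944 exon bases with Lcorl on the opposite strand (17.9 and 13.4 CPM, log2 ratio 0.42). Per length, Smc4 stood at 61.8 and 37.8 CPM per kb, above the other condensin members in either library.

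**Figure D4:**
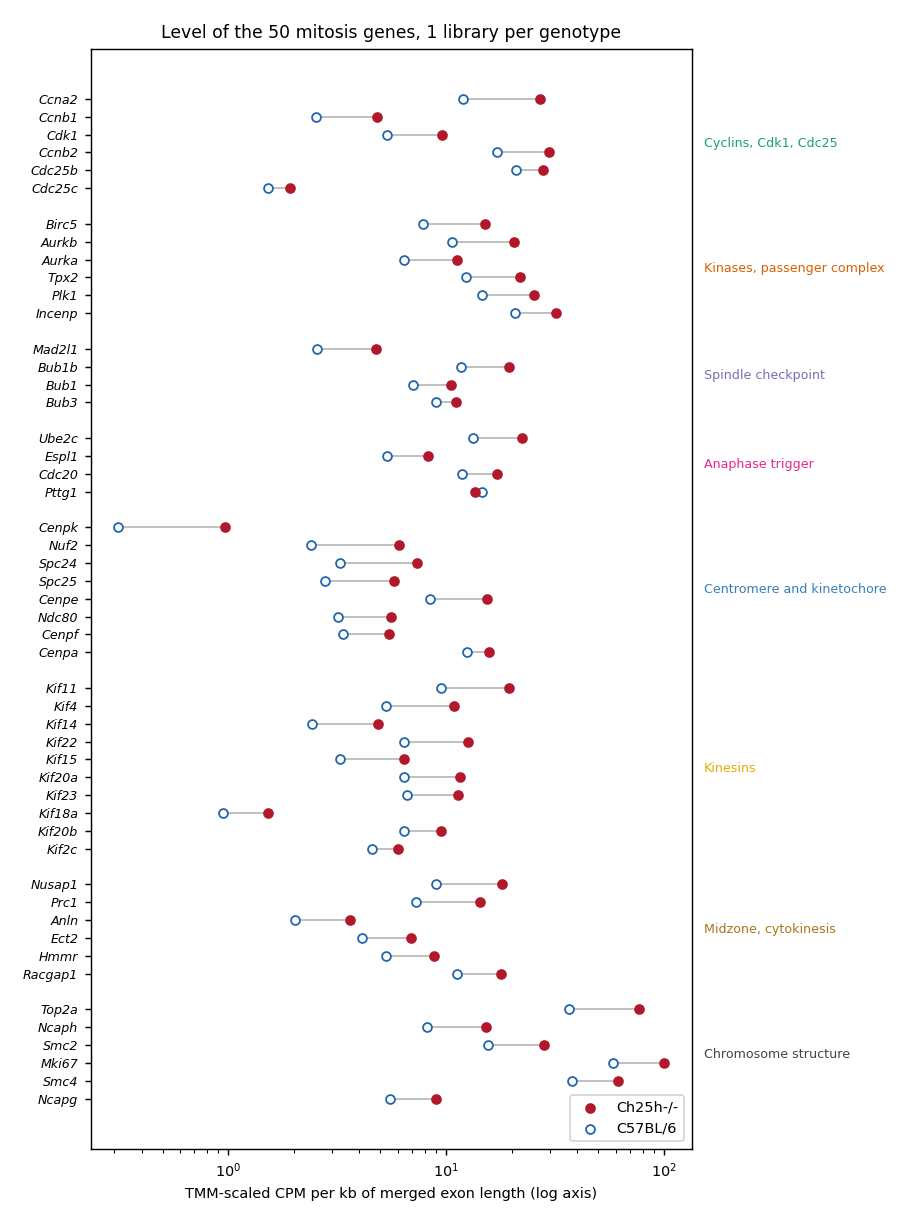
Level of each of the 50 genes in TMM-scaled CPM per kb of merged exon length (log axis), Ch25h-/- library in filled red and C57BL/6 library in open blue, joined by a line and grouped by role. Cenpk is lowest and Mki67 highest in both libraries, and the red point lies to the right for every gene but Pttg1.

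Exon sequence shared with another annotated gene affects 15 of the 50, in 14 cases with a gene on the opposite strand, and the strand setting of the counting is not given in the sources used here. Among the other 35 genes, 34 had a log2 ratio above 0, 29 were called higher at 1.5-fold (82.9%) and 5 at 2-fold, and the median was 0.81. The 50 genes lie on 16 chromosomes, with at most 10 on any of them (chromosome 2).

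Further mitosis genes outside the 50 showed a like pattern with a smaller median. Of 70 such genes, all measured, 67 had a log2 ratio above 0, 43 were called higher at 1.5-fold (61.4%), 15 at 2-fold (21.4%) and 0 lower at either fold, and their median was 0.67. Ska1, a kinetochore protein that tracks microtubules, had the largest ratio, at 8.77 CPM in the Ch25h-/- library and 3.27 CPM in the C57BL/6 library (1.42). Sgol1, the shugoshin that protects centromeric cohesin, stood at 1.34, Casc5, the Knl1 gene of the outer kinetochore, at 1.23, and the checkpoint kinase gene Ttk at 1.05. Cenpm had the smallest ratio, -0.18, with an interval that includes 0. Condensin subunits illustrate the spread. Ncapd2, the most abundant of the 70 and part of condensin I, had 210 and 144 CPM (0.54), and the condensin II genes Ncapg2, Ncapd3 and Ncaph2 stood at 0.92, 0.34 and 0.12.

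DNA replication genes, which mark S phase, also lay mostly above 0. Of 42 genes, 39 had a log2 ratio above 0, 22 were called higher at 1.5-fold (52.4%), 5 at 2-fold and 0 lower at 1.5-fold, with a median of 0.59 against 0.81 for the 50 mitosis genes. Gins1 of the replicative helicase had the largest ratio (10.3 CPM in the Ch25h-/- library and 3.62 CPM in the C57BL/6 library, 1.51) and Gins3 the smallest (16.3 and 22.5 CPM, -0.47). Mcm6, the most abundant, had 242 and 166 CPM (0.54). The ranges of both lists overlap, and no test of the difference between the lists can be made from these libraries.

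Genes of the transcription factors that act on mitotic promoters were followed in a list of 23. Of these, 22 had a log2 ratio above 0 and 9 were called higher at 1.5-fold, against 51.8% and 7.35% of measured genes. Foxm1, the forkhead activator of G2 and M phase genes, had 109 CPM in the Ch25h-/- library and 56.9 CPM in the C57BL/6 library (0.93, interval 0.82 to 1.05), and Mybl2, the gene of B-MYB, had 29.3 and 15.2 CPM (0.95). E2f7 had the largest ratio of the list, 1.49, and Lin37, a subunit of MuvB, the smallest, -0.06. The other MuvB genes lay between these values and well under Foxm1, with Lin52 at 0.09, Lin9 at 0.17, Rbbp4 at 0.33 and Lin54 at 0.41. The most abundant of the list, Rbl2, which encodes the p130 protein of DREAM in resting cells, had 436 and 337 CPM (0.37).

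Inhibitors of the cell cycle and G1 cyclins showed no common direction. Of 19 measured genes out of 21, 10 had a log2 ratio above 0 and 9 below it, and the median was 0.02, while the ratio of their sums was -0.02. Gadd45a had the smallest ratio (13.7 CPM in the Ch25h-/- library and 38.5 CPM in the C57BL/6 library, -1.49). Cdkn1a, which encodes p21, had 127 and 174 CPM (-0.46), and Cdkn1b, which encodes p27, had 125 and 151 CPM (-0.28). Cdkn2c, the p18 gene, had the largest, at 40.1 and 19.5 CPM (1.04), and Btg1, the most abundant, stood at -0.21. Among the D cyclins, Ccnd3 had 473 and 292 CPM (0.70), while Ccnd2, at 911 and 914 CPM, was level.

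Markers of several cell types differed between the same libraries. All 14 NK cell markers had a log2 ratio above 0 (10 called higher at 1.5-fold, 4 at 2-fold), from 0.55 for Prf1 to 1.46 for Ncr1, with a median of 0.80. Over all measured genes, 51.8% had a ratio above 0, 7.35% were called higher at 1.5-fold and 2.07% at 2-fold. Of 14 genes of neutrophils and their precursors, 13 had a ratio above 0, with a median of 0.80, and their sum was 2549 CPM in the Ch25h-/- library and 1576 CPM in the C57BL/6 library. Within that list the genes of early precursors, Mpo, Elane and Prtn3, stood at -0.41, 0.16 and 0.18. At 2-fold, 6 genes of the list were called higher and 0 lower. Those called higher were Ly6g at 2.47 (41 and 8 counts), Mmp9 at 1.18, Ltf at 1.12, Cebpe at 1.09, Camp at 1.04 and Ngp at 1.004. S100a8, Retnlg and S100a9 stood at 0.80, 0.80 and 0.63, while Mmp8 at 0.44 and Lcn2 at 0.25 stayed under 1.5-fold. The 7 markers of Ly6C-high monocytes summed to 2960 and 2043 CPM, with a median log2 ratio of 0.63.

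Most markers of other cell types lay on the opposite side of 0. Medians were -0.32 over 10 Ly6C-low monocyte genes, -0.61 over 10 B cell genes, -0.75 over 12 red pulp macrophage genes, -0.78 over 4 measured marginal zone macrophage genes, -1.15 over 6 plasma cell genes and -1.83 over 7 measured conventional dendritic cell genes. The Ly6C-low monocyte genes nevertheless summed to more in the Ch25h-/- library, 2892 CPM against 2405 CPM in the C57BL/6 library, so the sign differs between their median and their sum. Most of both sums came from Itgal (1784 and 1341 CPM) and Spn (676 and 471 CPM), while 7 of the 10 genes had a ratio under 0. T cell markers split evenly, 5 above and 5 below 0, between -0.97 for Tcf7 and 1.45 for Cd28, with a median of 0.06. Their sum was 476 CPM in the Ch25h-/- library and 325 CPM in the C57BL/6 library, a log2 ratio of 0.55. Most of it was Lck, at 320 and 186 CPM, followed by Cd28 at 81.7 and 29.9 CPM. The T cell receptor genes Cd3d, Cd3e and Cd3g stood at 0.28, 0.21 and -0.23, each with an interval that includes 0. Progenitor markers summed to 141 and 212 CPM, and their 3 measured genes all had ratios under 0, the largest at -0.45. Defining erythroid genes had few counts or none, with 0 counts of Alas2 in both libraries, and of that list of 13 genes just Car2 and Tfrc were measured (both 0.84). Of its unmeasured genes, Ermap had 3 counts in the Ch25h-/- library and 29 in the C57BL/6 library, and Rhag 1 and 11. Hba-a1 had 7 and 0 and Gata1 16 and 12, so the list has no common direction. Of 5 megakaryocyte genes 1 was measured, Itga2b at -0.64. The part of these cell types in the higher mitosis genes was not tested.

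**Figure D5:**
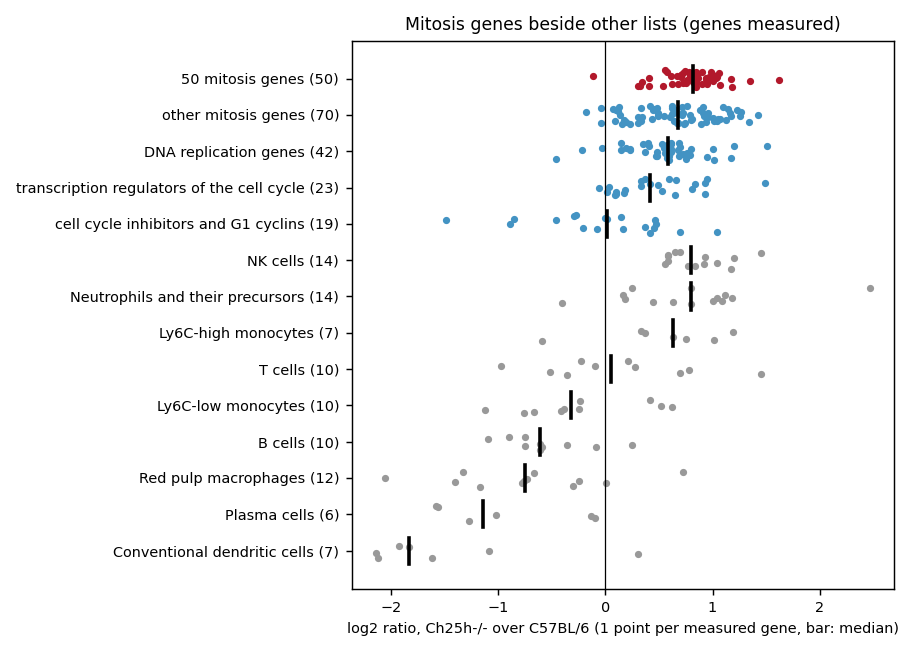
Log2 ratio of each measured gene (points) and its median (bars) for the 50 mitosis genes in red, other cell cycle lists in blue and cell type marker lists in grey, with the number of genes measured. The mitosis genes have a median of 0.81 and the NK cell markers 0.80, and the dendritic cell markers lie lowest at -1.83.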

How the data were processed

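Per the labels, RNA was isolated from the sorted cells in TRIzol, and a KAPA RNA HyperPrep kit was used for the sequencing libraries. Tools named in the submitters' processing notes are edgeR 3.26.8, Subread 1.5.2 with featureCounts, FastQC 0.11.9 and GSNAP. Both mm10 and GRCm38 are listed there as builds. The table deposited by the authors holds raw read counts per gene, used as given. Neither the strand setting nor the handling of multimapping reads is given in the sources used here.

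For CPM, library sizes were multiplied by TMM factors (0.991 for Ch25h-/-, 1.009 for C57BL/6; edgeR 4.0.16, R 4.3.3). Ratios carry no prior count, and a floor of 3 counts was never needed, since each measured gene was detected in both libraries. Exact 95% intervals are Clopper-Pearson intervals of 1 library's share of both counts (scipy 1.17.1, Python 3.11.15). Intervals and floors cover the counting error of reads only. The reads carry no stated molecular identifiers and several can come from 1 molecule, so the intervals may be too narrow even for counting error. The calculation was tested on simulated counts. Positions, merged exon lengths and overlaps come from GENCODE M21 (GRCm38), which holds 30126 of the 30538 gene IDs, and promoter windows come from RefSeq (GRCm38.p6), matched by symbol. A merged length joins the exons of all annotated transcripts of a gene, used in these cells or not, so levels and ranks per length depend on the annotation. Some listed genes appear in the table by older symbols and were matched through them.

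The 50 genes and all lists were chosen with earlier results of these data known, and the 60 bases before the start used for nearby CHR matches were not in the written plan. All 50 are named, as are the extremes and the most abundant gene of each other cell cycle list. Further genes of those lists were named after their values were seen, and marker lists are given mostly as medians and sums. Protein sequences were not analysed here.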

Additional observations from a re-analysis of the deposited data

How the results depend on the processing

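No paired analysis was possible because each genotype has 1 library, and for the same reason no replicate could be left out. Library sizes were also scaled by totals alone, by upper quartiles, by DESeq2 1.42.0, without the 50 genes, or without a set of very abundant genes (S100a8/S100a9, mitochondrial, haemoglobin and antigen receptor genes). Other alternatives were a minimum of 5 CPM, a minimum of 1 count, adding a prior count of 2, and asking that the whole interval exceed the fold. Scalings shifted each log2 ratio by between -0.03 and 0.01, and none of the 50 ratios left its interval under any alternative run on it. With total counts the median of the 50 was 0.79 and the log2 ratio of their sums 0.78, since all ratios shift together (the median of all measured genes was then -0.01). An interval wholly beyond 2-fold left 3 genes called higher, against 10, because it can only remove calls. The share of all measured genes called higher by it was 0.560%. At 1.5-fold the alternatives called 34 to 42 of the 50 higher, and 0 lower. Further checks were chosen after seeing the data. Leaving Mki67 and Top2a out of the sum gave a log2 ratio of 0.76, and leaving out Pttg1, or the 15 genes with shared exons, left the median at 0.82 and 0.81. Counting error limits Cenpk most, whose interval is 1.31 wide on the log2 scale, against a median width of 0.31.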
